A study of Mus musculus with 8 samples.

Results

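The collagen chain genes are the gene rows whose symbol is Col, a number, the letter a and a number, with nothing after it. There were 44 of them among 24421 gene rows, and all 44 had a gene model on GRCm38, on 15 chromosomes. They were measured by poly-A RNA-seq in osteoblastic cells grown from the calvaria (skull vault) of newborn C57BL/6 mice, in 4 groups of 2 libraries. The groups were wild-type (WT) cells at day 0, WT cells at day 12, Def6-/- cells at day 0 and Def6-/- cells at day 12 of osteogenic culture, in which ascorbic acid and β-glycerophosphate are added. Day 0 cells had been expanded in culture without those additions. Def6 codes for a guanine nucleotide exchange factor of immune and bone cells, and its deletion here was in every cell of the mouse, so any cell type in the dish lacked it. Controls were WT littermates. The replicates were described as biological, without a statement of which animals each came from.

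Def6 had 112 to 186 reads in the 4 WT libraries and 0 to 2 reads in the 4 Def6-/- libraries. Each library held 2414856 to 3482837 reads on genes. Levels are given as normalized CPM, which is counts scaled to the reads on genes of each library after TMM scaling, and of 44 chain genes 37 had a mean of at least 1 deposited CPM in a group and were tested. The summed level of 11 osteoblast markers overlapped between days, at 2769 to 6878 at day 0 and 3205 to 5939 at day 12. Among them Spp1 overlapped too, at 2528 to 6741 and 1999 to 3336. Runx2 lay between 50.9 and 132 normalized CPM in all 8 libraries, and the late marker Ibsp was at 0.707 to 10.3 at day 0 and at 649 to 2486 at day 12. The summed level of 11 macrophage markers also moved with the day, from 188 to 410 at day 0 to 2974 to 5989 at day 12, and that of 8 adipocyte markers from 36.9 to 47.0 to between 311 and 439. For 8 chondrocyte markers with a row, of 10 listed, the sums overlapped, at 211 to 418 at day 0 and 237 to 283 at day 12. The sums of 10 endothelial markers, with Tie1 and Emcn at 0 reads, were 14.8 to 20.1 at day 0 and 23.5 to 29.6 at day 12. Those of 7 epithelial markers, with Krt14 and Krt8 at 0 reads, were 0.789 to 3.07 and 4.02 to 12.7. For 8 pericyte and smooth muscle markers the sums overlapped, at 215 to 413 and 181 to 256. The part of these other cells in the results was not tested. In bulk libraries, fewer cells of a type and less RNA per cell cannot be told apart.

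WT day 0 replicate 1 stood apart from the other libraries. Among 9196 genes at 10 normalized CPM or more with a known length, the shortest of 5 length bins had a median of 0.64 log2 units above the median of the 4 day 0 libraries, and the longest a median of -0.54. From the shortest to the longest bin this library fell by 1.18 log2 units, whereas the other 3 day 0 libraries changed by -0.06 to 0.22 and the 4 day 12 libraries by -0.04 to 0.05. Collagen mRNAs are long: the tested chain genes had a median exon length of 6026 bases, against 3455 bases over all tested genes with a length. Of the 37 tested chain genes, 18 had their lowest day 0 level in this library, against 35.2% of all tested genes. Where the WT change printed for a chain gene moved by over 1.5 times or changed its call without this library, it is therefore given with and without it.

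**Figure D1:**
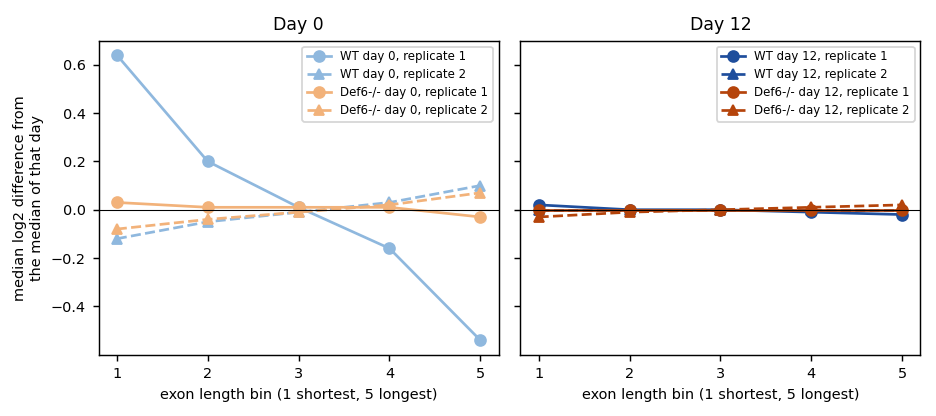
Median log2 difference of each library from the median of the 4 libraries of its day (vertical axis), for genes in 5 bins of exon length (horizontal axis, shortest to longest), with day 0 on the left and day 12 on the right. WT day 0 replicate 1 runs from 0.64 to -0.54, and the other lines stay near 0.

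Collagens are secreted trimers whose chains wind around each other in a triple helix, which requires a glycine in each triplet of residues. Fibrillar chains form the banded fibrils of bone, skin and cartilage, and fibril-associated chains sit on the surface of those fibrils. Network chains build the sheets of basement membranes and of some other matrices, beaded filament chains form the microfibrils of type VI collagen around cells, and further chains are held in the cell membrane or found near basement membranes. Type I collagen is the main protein of bone matrix, and osteoblasts make it before mineral is laid down.

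The glycine repeat is visible in the coding sequences. In the GENCODE models, the longest run of consecutive triplets that begin with a glycine codon (GGN) was 216 to 344 triplets in the 11 fibrillar chains. It was 39 to 66 in the 6 basement membrane network chains, whose repeat was broken into 22 to 27 stretches of 4 triplets or more. The repeat also shows in the exon lengths: 83.9% of the inner coding exons of the fibrillar chains, and 63.8% of those of all 44 members, had a length divisible by 9 bases, against 13.7% in the other genes of the files. Exons of exactly 54 bases, which hold 6 triplets, made up 48.64% of the inner coding exons of the fibrillar chains and 0.4% of those of other genes. The following exons show this unit in chains described later, read 5′ to 3′ on the coding strand (GRCm38), with every glycine codon in capitals. The first 4 belong to fibrillar chains and the next pair to fibril-associated chains.
Col1a1, exon 8, chr11:94939904-94939957, + strand: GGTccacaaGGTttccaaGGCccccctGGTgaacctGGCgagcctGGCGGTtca
Col1a2, exon 8, chr6:4515481-4515534, + strand: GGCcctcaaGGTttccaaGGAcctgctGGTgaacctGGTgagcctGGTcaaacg
Col3a1, exon 6, chr1:45325360-45325413, + strand: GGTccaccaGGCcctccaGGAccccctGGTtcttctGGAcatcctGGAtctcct
Col24a1, exon 4, chr3:145320661-145320714, + strand: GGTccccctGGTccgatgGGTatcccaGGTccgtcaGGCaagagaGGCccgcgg
Col9a2, exon 5, chr4:121043696-121043749, + strand: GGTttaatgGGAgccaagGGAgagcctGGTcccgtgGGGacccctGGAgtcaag
Col14a1, exon 37, chr15:55467960-55468013, + strand: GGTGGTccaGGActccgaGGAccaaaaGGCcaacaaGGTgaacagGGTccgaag
In contrast, this exon of the basement membrane chain gene Col4a1 holds a break: its first glycine codon is followed by the next at a wider spacing than the rest.
Col4a1, exon 19, chr8:11236426-11236510, - strand: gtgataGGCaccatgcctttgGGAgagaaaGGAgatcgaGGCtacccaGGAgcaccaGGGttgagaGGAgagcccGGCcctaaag

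Collagen mRNA took up more of each library at day 12 than at day 0. The chain genes held 4.17% and 7.61% of the reads on genes in the WT day 0 libraries and 7.16% and 7.47% in the Def6-/- day 0 libraries. At day 12 they held 11.0% and 12.6% in WT cells and 14.2% and 13% in Def6-/- cells. No day 12 library overlapped a day 0 library, and at day 12 the Def6-/- values lay above the WT values. No test was made of these sums. The lowest of the 8 values was that of WT day 0 replicate 1. Type I collagen took 52.1% to 57.2% of the collagen reads at day 0 and 69.7% to 74.6% at day 12. The share of basement membrane chains among collagen reads was 4.55% to 4.86% at day 0 and 1.31% to 1.82% at day 12, and that of beaded filament chains 8.74% to 10.4% and 3.91% to 5.09%. The collagen total took up more of each library at day 12, so a lower share of it need not mean a lower level. Levels are given by class below.

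**Figure D2:**
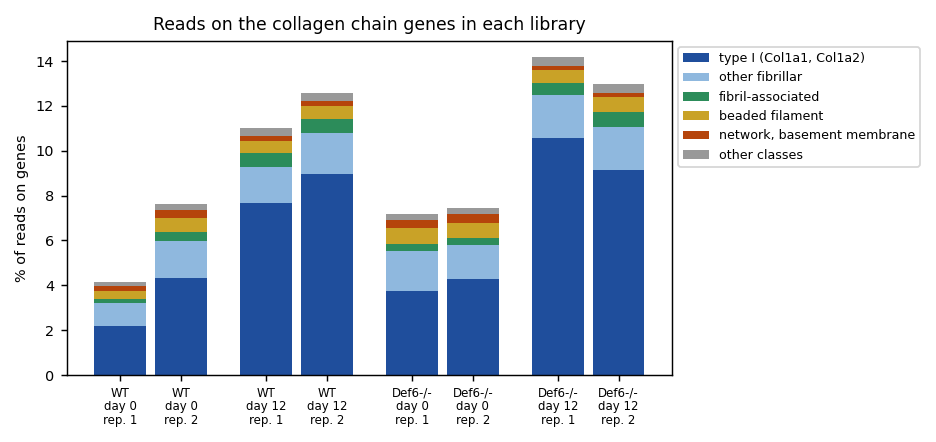
Percent of reads on genes that fell on the collagen chain genes (vertical axis, from 0) in each of the 8 libraries, stacked by class. The bars of the day 12 libraries reach 11.0% to 14.2% and those of the day 0 libraries 4.17% to 7.61%, with most of the height taken by type I.

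Per kilobase of exon, the unit in which genes can be compared, Col1a1 had the highest mean level of the chain genes in each group, at 3420 normalized CPM per kilobase in WT day 0, 8420 in WT day 12, 4240 in Def6-/- day 0 and 9950 in Def6-/- day 12. Col1a2 was next in each group, at 2090, 6680, 2490 and 8090. At WT day 0 the following chains, Col2a1 (524), Col3a1 (492), Col5a2 (468), Col5a1 (467) and Col6a1 (463), lay closer together than the libraries of Col2a1 did, so their order was not resolved. At day 12 Col3a1 stood clear of the rest, at 1600 in WT and 1810 in Def6-/- cells, followed by Col6a1 at 577 and 611.

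**Figure D3:**
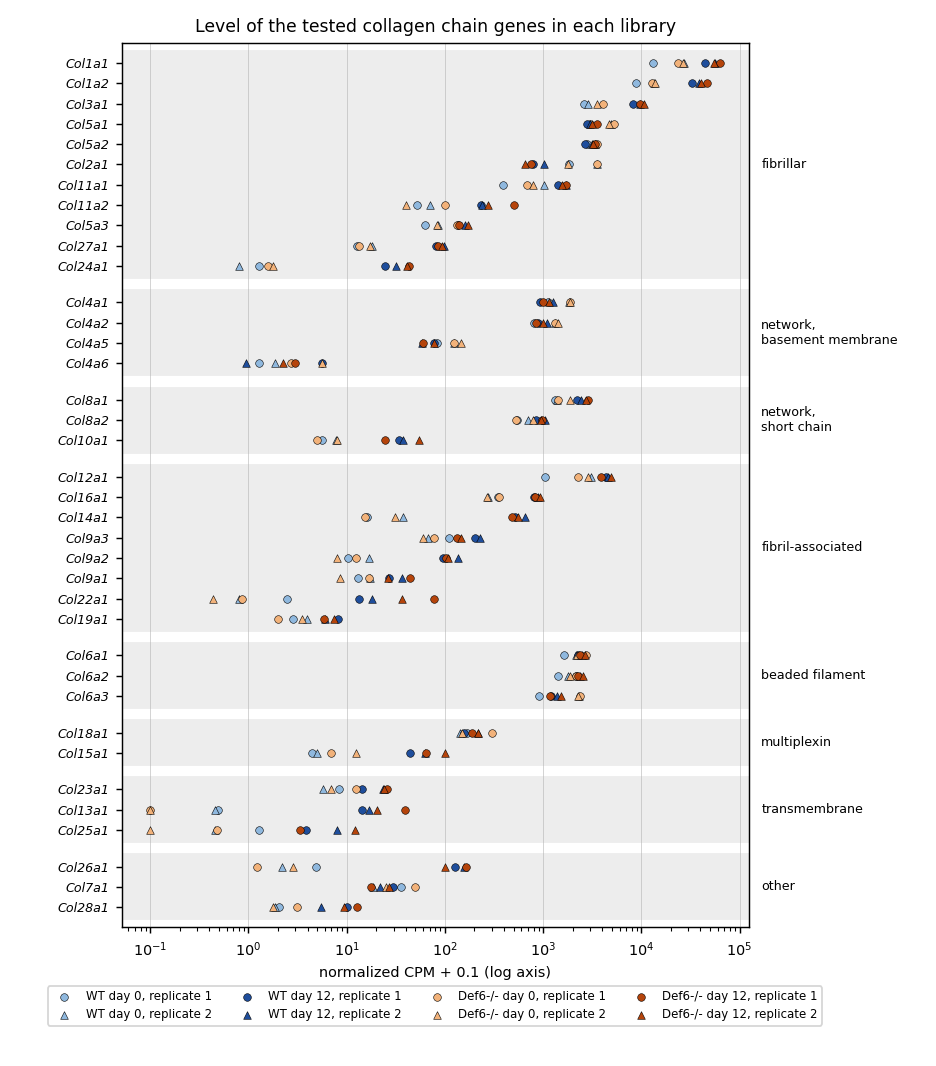
Normalized CPM (horizontal log axis, with 0.1 added) of the 37 tested chain genes, ordered by class and mean level, with a point for each of the 8 libraries. Points of day 12 lie to the right of those of day 0 for genes such as Col26a1, Col14a1 and Col24a1, and to the left for Col2a1.

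The comparison of day 12 with day 0 asked how the chain genes changed over osteogenic culture in each genotype. In limma fits over all 12348 tested genes, 19 of the 37 tested chain genes rose in WT cells (adjusted p below 0.05), against 12.7% of all tested genes, and 1 fell, against 5.63%. In Def6-/- cells 19 rose, against 12% of all tested genes, and 2 fell, against 4.79%. The median log2 change of the 37 was 1.30 in WT and 1.16 in Def6-/- cells, whereas the medians of all tested genes were 0.00 and 0.01. Estimates had the same sign in both genotypes for 35 of 37, and 17 chain genes rose in both. Col13a1, Col22a1, Col24a1, Col25a1 and Col28a1 had a mean below 1 deposited CPM in both day 0 groups. They passed the filter only through day 12, so a call for them could only be a rise. The same holds for any other tested gene that passed in this way. Without WT day 0 replicate 1, 20 chain genes rose in WT cells and 5 fell, against 15.4% and 9.64% of all tested genes, and the median was 0.84. All 20 earlier calls were kept, and Col25a1 (higher) and Col4a1, Col4a5, Col5a1 and Col6a3 (lower) were added. The count of risers in WT cells was 12 without either WT day 12 library, and in Def6-/- cells it was 12 without Def6-/- day 12 replicate 2. A single spread per gene was estimated over all 8 libraries. The SE and p of the Def6-/- comparison therefore also drew on WT day 0 replicate 1. Fitted with only the Def6-/- libraries, 23 chain genes rose and 6 fell. The counts of this fit and of those without a day 12 library were not set against the share of all tested genes. They are therefore not read as results about the chain genes. With the exon length trend removed, chosen after seeing the data, Col1a1, Col11a1 and Col12a1 also rose in Def6-/- cells. Col4a1, Col4a2, Col5a1 and Col6a3 also fell there. Uncalled Def6-/- changes are thus not shown to be absent. Changes were computed as log2(CPM + 1), so they are smaller than the true ratio for genes near 0.

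**Figure D4:**
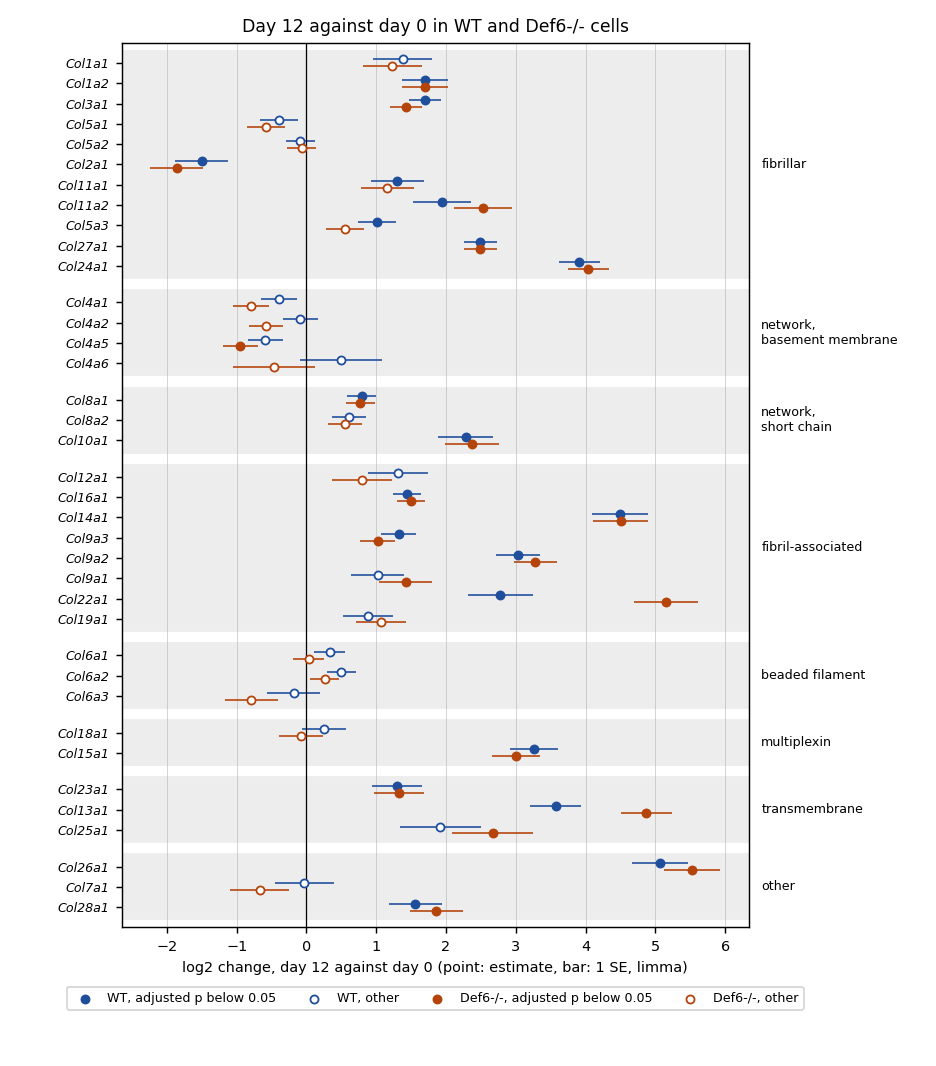
log2 change from day 0 to day 12 (horizontal axis, limma estimate with a bar of 1 SE) of the 37 tested chain genes by class, in WT (blue) and Def6-/- cells (orange). Filled points have an adjusted p below 0.05, and in both genotypes 19 filled points lie to the right of 0.

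Among the 11 fibrillar chains, 7 rose and 1 fell in WT cells, and 5 rose and 1 fell in Def6-/- cells. The shares of all tested genes given above apply here and to the other classes. The type I chains were the highest. Col1a2 was at 8908 and 13457 normalized CPM in the WT day 0 libraries and at 32625 and 38778 at WT day 12. In Def6-/- cells it was at 12743 and 13852 at day 0 and at 46380 and 40164 at day 12, so that no day 12 library overlapped a day 0 library. Its log2 change was 1.70 ± 0.33 (SE, n = 2 per group) in WT cells (limma adjusted p = 0.00789) and 1.70 ± 0.33 in Def6-/- cells (limma adjusted p = 0.00809), and without WT day 0 replicate 1 the WT change was 1.40 (limma adjusted p = 0.00564). Col1a1 was at 13199 and 27342 in WT day 0, 44118 and 55698 in WT day 12, 23599 and 26652 in Def6-/- day 0, and 63689 and 54356 in Def6-/- day 12. Its libraries did not overlap between days either, but its estimates of 1.38 ± 0.42 in WT (limma adjusted p = 0.0505) and 1.23 ± 0.42 in Def6-/- cells (limma adjusted p = 0.0802) did not pass the test. Without WT day 0 replicate 1 the WT estimate of Col1a1 was 0.86 (limma adjusted p = 0.101). With the length trend removed from each library, an alternative chosen after the data were seen, the Col1a1 estimates were 1.27 (limma adjusted p = 0.0144) and 1.25 (limma adjusted p = 0.0166).

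Col3a1, the chain of type III collagen, which forms fibrils with type I in soft tissue, was at 2590 and 2884 normalized CPM in WT day 0 and at 8154 and 9633 in WT day 12. In Def6-/- cells it was at 4030 and 3541 at day 0 and 9606 and 10582 at day 12. It rose by 1.70 ± 0.23 in WT (limma adjusted p = 0.00143) and by 1.42 ± 0.23 in Def6-/- cells (limma adjusted p = 0.00353). The fibrillar chains with the largest changes were far less abundant. Col24a1, a chain of type XXIV collagen, whose expression is known from forming bone, was at 1.18 and 0.707 in WT day 0, 24.7 and 31.8 in WT day 12, 1.5 and 1.70 in Def6-/- day 0, and 43.1 and 40.6 in Def6-/- day 12. Every day 12 library was more than 10 times every day 0 library. It rose by 3.91 ± 0.29 in WT (limma adjusted p = 7.79e-05) and by 4.04 ± 0.29 in Def6-/- cells (limma adjusted p = 6.61e-05). Col27a1, the related chain of type XXVII collagen, went from 12.6 and 18 to 81.8 and 97.2 in WT libraries and from 13.2 and 17 to 84.2 and 93.9 in Def6-/- libraries. Its change was 2.49 ± 0.24 in both genotypes (limma adjusted p = 0.000307 in WT and 0.00032 in Def6-/- cells).

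The remaining fibrillar chains belong to types II, V and XI. Col2a1, the chain of type II collagen, the main collagen of cartilage, fell. It was at 1821 and 3525 normalized CPM in WT day 0 and 787 and 1016 in WT day 12, and at 3570 and 1804 in Def6-/- day 0 and 747 and 650 in Def6-/- day 12. Its replicates at day 0 were far apart in both genotypes, yet no day 12 library reached a day 0 library. The change was -1.5 ± 0.38 in WT (limma adjusted p = 0.0267) and -1.86 ± 0.38 in Def6-/- cells (limma adjusted p = 0.0106). Among the chondrocyte markers, Acan, the core protein of cartilage proteoglycan, was at 75.8 to 149 at day 0 and at 30.0 to 49.4 at day 12. Sox9, the transcription factor of chondrocytes, overlapped between days, at 54.6 to 142 and 98.7 to 115. Col11a2, a chain of type XI collagen, which forms fibrils with type II, was at 52.5 and 70.0 in WT day 0, 235 and 237 in WT day 12, 101 and 40.2 in Def6-/- day 0, and 509 and 273 in Def6-/- day 12. It rose in both genotypes, by 1.94 ± 0.42 (limma adjusted p = 0.0137) and 2.53 ± 0.42 (limma adjusted p = 0.00406). Its partner Col11a1 rose in WT cells, from 391 and 1029 to 1422 and 1725 (1.30 ± 0.38, limma adjusted p = 0.0454). That value depended on WT day 0 replicate 1, without which it was 0.61 (limma adjusted p = 0.0189). The call was lost in 12 of 19 alternatives, among them edgeR with either scaling, CPM as deposited, both other filters and a fit of only the groups compared. In Def6-/- cells Col11a1 went from 687 and 792 to 1724 and 1575 (1.16 ± 0.38, limma adjusted p = 0.0724).

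Type V collagen forms the core on which type I fibrils grow. Its main chains did not follow type I. Col5a2 was at 2662 to 3535 normalized CPM in all 8 libraries, with changes of -0.09 ± 0.21 in WT (-0.22 without WT day 0 replicate 1) and -0.07 ± 0.21 in Def6-/- cells. Col5a1 was at 2973 and 4883 in WT day 0 and at 2784 and 3023 in WT day 12, and at 5267 and 4688 in Def6-/- day 0 and 3505 and 3159 in Def6-/- day 12. Its estimates were -0.39 ± 0.27 and -0.58 ± 0.27 (limma adjusted p = 0.348 and 0.186), and without WT day 0 replicate 1 the WT change was -0.75 (limma adjusted p = 0.0101). The third chain, Col5a3, went from 62.0 and 85.5 to 137 and 159 in WT libraries and rose by 1.01 ± 0.27 (limma adjusted p = 0.0314). In Def6-/- libraries it went from 134 and 82.4 to 140 and 172 (0.55 ± 0.27, limma adjusted p = 0.208).

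Of the 9 fibril-associated chains, 8 were tested, 5 rose in WT and 6 in Def6-/- cells, and none fell. All 8 estimates were positive in both genotypes. Col14a1, whose product type XIV collagen binds the surface of type I fibrils, was at 16.2 and 37.5 normalized CPM in WT day 0, 514 and 647 in WT day 12, 15.4 and 30.7 in Def6-/- day 0, and 477 and 558 in Def6-/- day 12. It rose by 4.49 ± 0.40 in WT (limma adjusted p = 0.000199) and by 4.50 ± 0.40 in Def6-/- cells (limma adjusted p = 0.000198). Col12a1, the related chain of type XII collagen, was abundant on both days, at 1052 and 3091 in WT day 0, 4333 and 4628 in WT day 12, 2242 and 2853 in Def6-/- day 0, and 3904 and 4909 in Def6-/- day 12. Its days did not overlap, but the changes of 1.31 ± 0.43 and 0.79 ± 0.43 did not pass the test (limma adjusted p = 0.0692 and 0.265). The WT value was 0.53 without WT day 0 replicate 1 (limma adjusted p = 0.0818).

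Type IX collagen coats the fibrils of cartilage, and 2 of its 3 chains rose in both genotypes, whereas Col2a1 fell. Col9a2 was at 10.3 and 16.6 normalized CPM in WT day 0, 94.7 and 137 in WT day 12, 12.4 and 7.83 in Def6-/- day 0, and 102 and 107 in Def6-/- day 12. The rise was 3.03 ± 0.31 in WT (limma adjusted p = 0.000377) and 3.28 ± 0.31 in Def6-/- cells (limma adjusted p = 0.000257). Col9a3 went from 109 and 67.5 to 202 and 229 in WT libraries and from 77.1 and 60.3 to 132 and 147 in Def6-/- libraries, a rise of 1.32 ± 0.25 (limma adjusted p = 0.0068) and 1.02 ± 0.25 (limma adjusted p = 0.0231). Col9a1 was at 13 and 17 in WT day 0, 26.7 and 36.4 in WT day 12, 16.9 and 8.51 in Def6-/- day 0, and 44.3 and 26.0 in Def6-/- day 12. It rose in Def6-/- cells by 1.42 ± 0.38 (limma adjusted p = 0.0332), and the WT change was 1.02 ± 0.38 (limma adjusted p = 0.0984).

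Col16a1, a chain of type XVI collagen, was at 348 and 278 normalized CPM in WT day 0, 807 and 892 in WT day 12, 359 and 270 in Def6-/- day 0, and 836 and 937 in Def6-/- day 12. Its rise of 1.44 ± 0.20 in WT (limma adjusted p = 0.00181) and 1.5 ± 0.20 in Def6-/- cells (limma adjusted p = 0.00148) was nearly the same. Col22a1, whose product type XXII collagen is known from tissue junctions, had 6 and 2 reads in the WT day 0 libraries and 2 and 1 in the Def6-/- day 0 libraries, or 0.341 to 2.37 normalized CPM. At day 12 it was at 13.2 and 18 in WT and at 77.2 and 36.7 in Def6-/- libraries. It rose by 2.78 ± 0.46 in WT (limma adjusted p = 0.00391) and by 5.15 ± 0.46 in Def6-/- cells (limma adjusted p = 0.000198). With 3 reads over both Def6-/- day 0 libraries, the ratio of day 12 to day 0 there was 107, with an exact 95% counting interval of 36.2 to 522. Counting intervals cover counting error only. Col19a1 was at 1.88 to 3.89 at day 0 and at 5.75 to 8.04 at day 12, with changes of 0.88 ± 0.36 and 1.07 ± 0.36 (limma adjusted p = 0.13 and 0.0784).

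The network chains are few, so counts by class are descriptive. None of the 4 tested basement membrane chains rose, against 12.7% of all tested genes in WT and 12% in Def6-/- cells. For so few genes this is near those shares. The median of their log2 changes was -0.24 in WT and -0.69 in Def6-/- cells, and the WT median was -0.59 without WT day 0 replicate 1. Col4a1 and Col4a2 code for the chains of the common type IV trimer. Col4a1 was at 1127 and 1816 normalized CPM in WT day 0, 938 and 1264 in WT day 12, 1891 and 1861 in Def6-/- day 0, and 1008 and 1147 in Def6-/- day 12. The change was -0.39 ± 0.26 in WT (limma adjusted p = 0.335) and -0.80 ± 0.26 in Def6-/- cells (limma adjusted p = 0.0691), and without WT day 0 replicate 1 the WT change was -0.74 (limma adjusted p = 0.0117). Col4a2 was at 813 and 1337, 884 and 1092, 1333 and 1424, and 854 and 988 in the same order of groups, with changes of -0.09 ± 0.25 and -0.58 ± 0.25 (limma adjusted p = 0.849 and 0.16), and the WT change was -0.44 without WT day 0 replicate 1 (limma adjusted p = 0.0699). These genes face away from each other, and their RefSeq transcripts (GRCm38.p6) start so close that the first 22 bases of each overlap. The window around that shared start shows the overlap in capitals, read on the + strand.
Col4a1 and Col4a2 starts, chr8:11312801-11312830, + strand: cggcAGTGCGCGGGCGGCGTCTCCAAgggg
Whether reads were assigned by strand is not given in the sources used here, and reads within those bases could not be assigned to either gene without it.

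Col4a5, a chain of a less common type IV trimer, was at 83.3 and 124 normalized CPM in WT day 0, 76.6 and 59.0 in WT day 12, 123 and 145 in Def6-/- day 0, and 60.4 and 77.7 in Def6-/- day 12. It fell in Def6-/- cells by 0.95 ± 0.25 (limma adjusted p = 0.032). The WT change was -0.59 ± 0.25 (limma adjusted p = 0.144) and -0.87 without WT day 0 replicate 1 (limma adjusted p = 0.00931). Col4a6, its neighbour on chromosome X, stayed between 0.838 and 5.45. Of the 3 tested short-chain network chains 2 rose in each genotype, against 12.7% of all tested genes in WT and 12% in Def6-/- cells. Col10a1, the collagen of hypertrophic cartilage, was at 5.52 and 7.77 in WT day 0, 34.4 and 37.3 in WT day 12, 4.89 and 7.83 in Def6-/- day 0, and 24.2 and 54.2 in Def6-/- day 12. It rose by 2.28 ± 0.39 (limma adjusted p = 0.00475) and 2.37 ± 0.39 (limma adjusted p = 0.00402). Col8a1, a chain of the type VIII collagen of vessel walls and the cornea, was at 1310 and 1378 in WT day 0, 2222 and 2421 in WT day 12, 1406 and 1901 in Def6-/- day 0, and 2880 and 2705 in Def6-/- day 12. It rose by 0.79 ± 0.21 (limma adjusted p = 0.0312) and 0.77 ± 0.21 (limma adjusted p = 0.036). Its partner Col8a2 was at 533 to 791 at day 0 and 856 to 1053 at day 12, and its changes of 0.61 ± 0.24 and 0.55 ± 0.24 had limma adjusted p values of 0.114 and 0.155.

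None of the 3 tested beaded filament chains passed the limma test at an adjusted p below 0.05 in either genotype, and 1, Col6a2 in WT cells, had an unadjusted p below 0.05, which it lost without WT day 0 replicate 1. Col6a1 was at 1632 and 2167 normalized CPM in WT day 0, 2241 and 2491 in WT day 12, 2714 and 2212 in Def6-/- day 0, and 2349 and 2659 in Def6-/- day 12. Col6a2 was at 1412 and 1795 in WT day 0, 2163 and 2349 in WT day 12, 2143 and 1865 in Def6-/- day 0, and 2242 and 2543 in Def6-/- day 12. The estimates were 0.33 and 0.03 for Col6a1 and 0.50 and 0.26 for Col6a2 in WT and Def6-/- cells. Without WT day 0 replicate 1 the WT estimates were 0.12 and 0.33. Col6a3, the long chain of the same trimer, was at 918 and 2331 in WT day 0, 1191 and 1390 in WT day 12, 2357 and 2260 in Def6-/- day 0, and 1170 and 1516 in Def6-/- day 12. The low WT day 0 value was that of replicate 1, and the other 3 day 0 libraries were above every day 12 library. The change was -0.18 ± 0.38 in WT (limma adjusted p = 0.776), -0.86 without that library (limma adjusted p = 0.00486), and -0.79 ± 0.38 in Def6-/- cells (limma adjusted p = 0.2).

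Multiplexins are chains with many breaks in the helix that lie near basement membranes. Col15a1 was at 4.34 and 4.95 normalized CPM in WT day 0, 44.2 and 63.2 in WT day 12, 6.77 and 12.3 in Def6-/- day 0, and 64.1 and 99.9 in Def6-/- day 12. It rose by 3.26 ± 0.34 in WT (limma adjusted p = 0.000446) and by 3.00 ± 0.34 in Def6-/- cells (limma adjusted p = 0.00068). Col18a1, whose product releases endostatin, was at 142 to 302 at day 0 and 156 to 216 at day 12, with changes of 0.25 ± 0.31 and -0.08 ± 0.31. Of the 3 tested transmembrane chains, 2 rose in WT and all 3 in Def6-/- cells. Col13a1, a membrane collagen of adhesion sites, had 1 read in each WT day 0 library and 0 reads in each Def6-/- day 0 library. At day 12 it was at 14.1 and 16.8 normalized CPM in WT and at 39.0 and 20.5 in Def6-/- libraries (limma adjusted p = 0.000418 and 8.49e-05). From the reads, the WT ratio of day 12 to day 0 was 40.7 with an exact 95% counting interval of 10.9 to 341, and Col13a1 was at least 55.8-fold higher at day 12 in Def6-/- cells, against a floor of 3 reads over the group. With Col13a1 at that bound the median of the 37 chain genes in Def6-/- cells was again 1.16. Col23a1 was at 8.29 and 5.65 in WT day 0, 14.4 and 23.5 in WT day 12, 12.4 and 6.81 in Def6-/- day 0, and 25.5 and 23.9 in Def6-/- day 12, a rise of 1.30 ± 0.36 (limma adjusted p = 0.0371) and 1.33 ± 0.36 (limma adjusted p = 0.0365). Col25a1, known from neurons and developing muscle, was at 0 to 1.18 at day 0, at 3.73 and 7.96 in WT day 12 and at 3.28 and 12 in Def6-/- day 12. It passed the test in Def6-/- cells (limma adjusted p = 0.0146), where 1 read at day 0 gave a ratio of 42.2 with a counting interval of 7.1 to 1710, and its WT adjusted p by limma was 0.0522.

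Col26a1, a short secreted chain that belongs to none of these classes, had the largest fitted change of the 37 in each genotype on the log2(CPM + 1) scale, on which the read ratios of Col13a1 and Col22a1 given above are not expressed. It was at 4.74 and 2.12 normalized CPM in WT day 0, 126 and 157 in WT day 12, 1.13 and 2.72 in Def6-/- day 0, and 164 and 101 in Def6-/- day 12. It rose by 5.07 ± 0.40 in WT (limma adjusted p = 0.000112) and by 5.53 ± 0.40 in Def6-/- cells (limma adjusted p = 6.61e-05). Col28a1 was at 1.97 and 1.77 in WT day 0, 10.0 and 5.44 in WT day 12, 3.01 and 1.70 in Def6-/- day 0, and 12.7 and 9.39 in Def6-/- day 12, a rise of 1.56 ± 0.38 (limma adjusted p = 0.0237) and 1.86 ± 0.38 (limma adjusted p = 0.0113). Col7a1, the chain of the anchoring fibrils of skin, was at 17.7 to 50 with no separation between days. The 7 chain genes that were not tested were Col4a3 and Col6a5, at 0 reads in all 8 libraries, Col6a4 (1 read in all), Col4a4 (3 reads), Col20a1 (22 reads), Col6a6 (24 reads) and Col17a1 (24 reads). Of the Col6a6 reads, 2 were at day 0 and 22 at day 12.

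Chains that share a trimer or a fibril were compared per kilobase of exon within each library. The ratio of Col1a1 to Col1a2 was 1.34 and 1.83 in WT day 0, 1.22 and 1.30 in WT day 12, 1.67 and 1.74 in Def6-/- day 0, and 1.24 and 1.22 in Def6-/- day 12. Every day 12 ratio was below every day 0 ratio. The days also separated for Col5a1 to Col5a2, at 0.832 to 1.17 at day 0 and 0.750 to 0.824 at day 12, with WT day 0 replicate 1 the nearest to day 12. They separated by small steps for Col4a1 to Col4a2 (1.27 to 1.38, then 1.03 to 1.15) and for Col6a1 to Col6a2 (1.69 to 1.86, then 1.52 to 1.55). Col5a1 to Col1a1 was 0.124 to 0.159 at day 0 and 0.0383 to 0.0445 at day 12, and Col12a1 to Col14a1 was 34.5 to 77.3 at day 0 and 3.80 to 4.68 at day 12. Within type V, Col5a3 to Col5a1 was 0.0241 to 0.0350 at day 0 and 0.0547 to 0.0746 at day 12. Within type VI, Col6a3 to Col6a1 was 0.406 in WT day 0 replicate 2, 0.328 and 0.386 in Def6-/- day 0 and 0.188 to 0.215 at day 12. WT day 0 replicate 1 was at 0.212, within the day 12 range. Col6a3 has the longer mRNA of the pair. The other ratios overlapped between days: Col3a1 to Col1a1 (0.112 to 0.209 over the 8 libraries), Col4a5 to Col4a1 (0.0473 to 0.0827), Col8a1 to Col8a2 (1.66 to 2.53) and Col11a1 to Col11a2 (2.78 to 16.2). No test was made of the ratios.

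**Figure D5:**
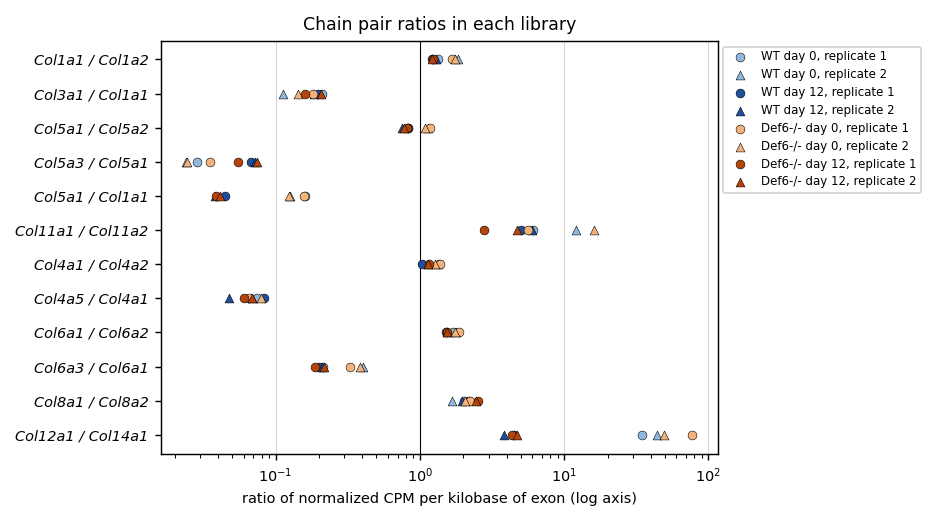
Ratio of normalized CPM per kilobase of exon (horizontal log axis) for 12 pairs of chains, with a point for each of the 8 libraries and a line at a ratio of 1. The day 12 points of Col12a1 to Col14a1 (3.80 to 4.68) and of Col5a1 to Col1a1 (0.0383 to 0.0445) lie well to the left of the day 0 points.

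The comparison of genotypes asked whether loss of Def6 changed the chain genes on either day. At day 0 none of the 37 passed the limma test at an adjusted p below 0.05, against 0.00810% of all tested genes, and edgeR and DESeq2 also called none. By the rule the study used, an unadjusted p below 0.05 and a change over 1.2-fold, 1 chain gene was higher in Def6-/- cells, against 0.988% of all tested genes, and none was lower, against 1.31%. That gene was Col15a1, at 4.34 and 4.95 normalized CPM in WT and 6.77 and 12.3 in Def6-/- libraries (0.85 ± 0.34, limma adjusted p = 0.908). The median estimate of the 37 was 0.28 with all libraries and 0.01 without WT day 0 replicate 1. Which WT library stood for the group decided the calls. Without replicate 1 the estimate changed sign for 8 of the 37 chain genes. Fits with a lone WT library assumed that it varied like the libraries of the other groups. Their counts were not set against the share of all tested genes, so they are not read as results about the chain genes.

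At day 12, where no library showed the length trend, none of the 37 passed the adjusted limma test either, against 0.00810% of all tested genes, and edgeR and DESeq2 called none. The SE and p of the day 12 comparison still drew on WT day 0 replicate 1, because the spread was estimated over all 8 libraries. By the study's rule 1 chain gene was higher in Def6-/- cells, against 0.810% of all tested genes, and 1 was lower, against 0.591%. Col22a1 was at 13.2 and 18 normalized CPM in WT and 77.2 and 36.7 in Def6-/- libraries, a difference of 1.72 ± 0.46 (limma adjusted p = 1.0). Without Def6-/- day 12 replicate 1, the higher of the pair, it no longer met the rule. Col9a3 was at 202 and 229 in WT and 132 and 147 in Def6-/- libraries, a difference of -0.63 ± 0.25 (limma adjusted p = 1.0). Its groups did not overlap, but the rule was not met when any of the 4 day 12 libraries was left out. For 10 chain genes the lower Def6-/- library exceeded the higher WT library, among them Col1a2, Col24a1, Col15a1 and Col13a1, against 16.8% of all tested genes, and for Col2a1 and Col9a3 the order was the opposite, against 15.9%. The estimates of 3 abundant chains were below their SE: Col1a1 differed by 0.25 ± 0.42, Col1a2 by 0.28 ± 0.33 and Col3a1 by 0.19 ± 0.23 on the log2 scale. With SEs of that size, no difference and a moderate one cannot be told apart.

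The genotype by day interaction asked whether Def6-/- cells changed more or less than WT cells over the culture. No chain gene passed at an adjusted p below 0.05 by limma, edgeR or DESeq2, and 0% of all tested genes did by limma. By the study's rule 2 chain genes had a larger rise in Def6-/- cells, against 0.705% of all tested genes, and none a smaller rise, against 0.421%. They were Col22a1, with an interaction of 2.37 ± 0.65 (limma adjusted p = 1.0), and Col13a1, with 1.30 ± 0.53 (limma adjusted p = 1.0). Both had 0 to 6 reads in each day 0 library, and Col13a1 no longer met the rule in 10 of 18 alternatives. Calls for the interaction also depended on which WT day 0 library was kept. Without replicate 1 the estimate changed sign for 11 of the 37 chain genes.

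Collagen chains are modified, folded, trimmed and crosslinked by other proteins, and the lists of those genes had smaller median changes than the chains. Of 24 tested genes for folding and hydroxylation (25 listed), 7 rose and 1 fell in WT cells and 6 rose and 1 fell in Def6-/- cells, with median changes of 0.20 and 0.33. Of all tested genes, 12.7% rose and 5.63% fell in WT and 12% rose and 4.79% fell in Def6-/- cells. P3h3, which belongs to the prolyl 3-hydroxylase family, was at 168 to 203 normalized CPM at day 0 and 455 to 483 at day 12 and rose by 1.32 ± 0.17 and 1.33 ± 0.17 (limma adjusted p = 0.00121 and 0.00116). Fkbp9, a prolyl isomerase, rose by 1.2 ± 0.17 in WT cells (limma adjusted p = 0.00188), and Fkbp7, another of the family, rose by 2.06 ± 0.28 in Def6-/- cells (limma adjusted p = 0.00151). Both were also higher at day 12 in the other genotype. Fkbp9 went from 614 and 632 to 1309 and 1415 in Def6-/- libraries, and Fkbp7 from 59.2 and 32.2 to 133 and 139 in WT libraries. Plod3, which hydroxylates and glycosylates lysine, fell from 485 to 545 at day 0 to 291 to 308 at day 12, by 0.77 ± 0.15 in WT (limma adjusted p = 0.00956) and 0.71 ± 0.15 in Def6-/- cells (limma adjusted p = 0.0147). The next lowest p among negative estimates were those of P4hb in WT cells (-0.39, limma adjusted p = 0.274) and P3h4 in Def6-/- cells (-0.27, limma adjusted p = 0.457).

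Of 13 tested genes for trimming of propeptides and for crosslinking (14 listed), 4 rose and 3 fell in WT and 5 rose and 2 fell in Def6-/- cells, against the same shares of all tested genes. The propeptide proteinase gene Tll1 was at 29.7 to 38.5 normalized CPM at day 0 and 188 to 247 at day 12, a rise of 2.82 ± 0.20 in WT (limma adjusted p = 5.97e-05) and 2.43 ± 0.20 in Def6-/- cells (limma adjusted p = 0.000122). Adamts2, which removes the amino-terminal propeptide, rose by 2.19 ± 0.23 in WT cells (limma adjusted p = 0.000431). Pcolce, an enhancer of propeptide removal at the other end, rose by 1.67 ± 0.17 in Def6-/- cells (limma adjusted p = 0.000361), and its relative Pcolce2 fell by 1.98 ± 0.45 in WT cells (limma adjusted p = 0.0175). The other genotype moved the same way for each. Adamts2 went from 102 and 132 to 525 and 564 in Def6-/- libraries, and Pcolce from 535 and 491 to 1491 and 1584 in WT libraries. Pcolce2 went from 17.7 and 14 to 6.16 and 4.27 in Def6-/- libraries. Of the crosslinking enzyme genes, Loxl2 changed by -0.73 ± 0.20 in WT (limma adjusted p = 0.0345) and -0.74 ± 0.20 in Def6-/- cells (limma adjusted p = 0.036), and Lox, at 3123 to 4181 at day 0 and 2031 to 2434 at day 12, fell by 0.77 ± 0.22 in Def6-/- cells (limma adjusted p = 0.0443). Of 9 tested receptor genes (10 listed), 3 rose and 1 fell in WT and 2 rose and 1 fell in Def6-/- cells, again against those shares. Itga10, an integrin chain that binds collagen, rose by 2.59 ± 0.31 in both genotypes (limma adjusted p = 0.00079 in WT and 0.000779 in Def6-/- cells). Lair1, a receptor of immune cells, rose by 2.58 ± 0.40 and 2.30 ± 0.40 (limma adjusted p = 0.00282 and 0.00491) between the same days as the macrophage markers, whose part in this rise was not tested. Itgb1, the shared beta chain of the collagen-binding integrins, fell by 0.94 ± 0.18 and 0.90 ± 0.18 (limma adjusted p = 0.0076 and 0.00983), and Ddr1, a receptor tyrosine kinase for collagen, changed by -0.46 and -0.58 (limma adjusted p = 0.149 and 0.0881). The median changes were 0.63 and 0.48 for the trimming and crosslinking list and 0.36 and 0.13 for the receptors, and the receptor median in WT cells was -0.14 without WT day 0 replicate 1. No gene of these lists was called between genotypes on either day at an adjusted p below 0.05 by limma. By the study's rule there was 1, against 0.810% of all tested genes higher at day 12: the crosslinking enzyme gene Loxl4 at day 12, at 37.6 and 26.0 normalized CPM in WT and 139 and 38.0 in Def6-/- libraries.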

How the data were processed

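The authors trimmed reads with fastp, aligned them with HISAT2 (mm10), took gene counts from HTSeq and made CPM in edgeR. The deposited CPM values were scaled to all reads, the HTSeq summary lines (64.72% to 71.16% of reads) included. These 5 lines were left out here. Whole reads were recovered: 99.957% of 114821 positive values were whole within 0.01 reads, as were all 316 of the chain genes, and Ptprc, with values that were not whole, was left out of the macrophage list. Genes with a mean of at least 1 deposited CPM in a group were tested by limma 3.58.1 with trend on log2(TMM-scaled CPM + 1), fitted over all 8 libraries with Benjamini-Hochberg adjustment. The test was checked on simulated data. edgeR 4.0.16 and DESeq2 1.42.0 in R 4.3.3 on the recovered reads were alternatives.

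The p-values rest on the spread of replicates around the group means, pooled per gene over all 8 libraries and moderated by a trend across genes. Each group had 2 libraries, and an exact permutation test of 2 against 2 could not go below 0.333. Named were all members by class, with every library for those called, up to 4 per class with the lowest p, and, of the 3 other lists, the 2 genes with the lowest p in each direction. Sequences were read from GENCODE M21 and RefSeq promoter tables. Members and lists were chosen with earlier results of these data known.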

Additional observations from a re-analysis of the deposited data

How the results depend on the processing

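Of 869 recomputed values of 46 called chain gene results 760 kept their call, 109 lost it, most often when a day 12 library was left out, and 0 changed sign. Among uncalled values, the estimate changed sign without WT day 0 replicate 1 for 1 of 37 chain genes between WT days, 8 between genotypes at day 0 and 11 for the interaction. Counts of chain genes called between days, rising and falling, were 13 and 0 in WT cells with only the groups compared. In Def6-/- cells 6 then fell, and 1 fell with CPM as deposited. With the exon length trend removed per library, chosen after seeing the data, 4 fell in WT and 6 in Def6-/- cells. Counts of calls in this section are given without the share of all tested genes in the same fit. They are therefore not read as results about the chain genes. Leaving out libraries gave 12 to 26 risers and 0 to 5 fallers in WT, and 12 to 25 and 0 to 6 in Def6-/- cells. They gave, at an adjusted p below 0.05, 0 to 10 higher and 0 to 1 lower in Def6-/- cells at day 0, and 0 to 1 and 0 to 4 for the interaction, with each maximum without WT day 0 replicate 2.

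By the study's rule at day 0, 2 chain genes were higher by edgeR, DESeq2, edgeR with RLE factors and a filter of 5 CPM, and 0 with a pseudocount of 4, only the groups compared, or the length trend removed. With a pseudocount of 0.25 or no filter beyond 1 read 1 was lower. Leaving out libraries gave 1 to 13 higher and 0 to 3 lower. At day 12, 3 were higher by edgeR with either scaling, CPM as deposited and a pseudocount of 4, 5 higher and 2 lower with only the groups compared, and 2 higher with the length trend removed. Leaving out libraries gave 0 to 2 higher and 0 to 1 lower. For the interaction 1 was higher by edgeR with either scaling, DESeq2, a pseudocount of 4 and a filter of 5 CPM. Leaving out libraries gave 1 to 3 higher and 0 to 9 lower. Fitting only the groups compared gives no interaction. The cause of these shifts was not tested. Left-out libraries leave fewer samples, but counts also went up in some of those fits.

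Same-numbered libraries deviated together with correlations of 0.00232 to 0.327, the highest between the WT and Def6-/- day 0 groups. With 2 libraries per group, these values cannot decide whether the numbers pair the samples. With the replicate block, 22 rose and 1 fell in WT cells, 20 rose and 3 fell in Def6-/- cells, and 2 were higher at day 12 by the study's rule.

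As a share of all reads, the chain genes held 1.88% (WT day 0), 3.80% (WT day 12), 2.46% (Def6-/- day 0) and 4.67% (Def6-/- day 12). Against reads on genes outside the 50 with the most reads, they stood at 15.7% (WT day 12), 9.23% (Def6-/- day 0) and 18.3% (Def6-/- day 12). Per coding length the mean ratio of Col6a1 to Col6a2 was 1.14 in place of 1.65. Depth limited genes at a few reads at day 0, such as Col13a1, Col22a1 and Col25a1.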
